A study of Arabidopsis thaliana with 6 samples.

Results

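The cytosolic large ribosomal subunit protein genes are the nuclear genes for the proteins of the 60S subunit, followed here in shoots of Brassica oleracea under phosphate starvation. They were chosen as 60 Arabidopsis loci that encode 60S proteins, and a locus was used where a probe set that names it alone had a value on all 6 arrays. This left 37 genes of 18 proteins, each read by 1 probe set, out of 19578 probe sets tested in all. The other 23 of the 60 loci have no such probe set. A further 71 loci for 60S proteins lie outside this choice and are described after these genes. Of all 60 loci, 5 are named by a probe set that also names other genes. Protein and copy names (RPL7B is the B copy of the gene for protein RPL7) are the usual ones for these Arabidopsis loci, while the gene tables of the arrays give the locus alone. Of the 18 proteins, 13 were read through 2 or more gene copies, which makes 32 of the 37 genes, and 5 through 1 copy.

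The 6 samples were shoots of the Brassica oleracea var. alboglabra line A12dH, 3 of them starved of phosphate (P-starved) and 3 supplied with all nutrients (replete). Plants of both groups grew on compost at 22°C with a 16 h day and were watered with deionised water each day, and neither the way nor the length of the phosphate treatment is stated in the labels. Biotin-labelled material from total RNA was hybridised to Affymetrix ATH1 arrays, which carry short probes designed for Arabidopsis thaliana. The labels do not tell if the arrays of a group came from different plants, so the p-values below rest on array-to-array spread that may be technical.

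Each eukaryotic cytosolic ribosome joins a 40S subunit, which reads the messenger RNA, with a 60S subunit, which links the amino acids and releases the protein through an exit tunnel. Plants keep several active gene copies for nearly every ribosomal protein, and the copies encode proteins that are nearly the same, so probes for 1 copy may also read another. Brassica oleracea has still more copies than Arabidopsis, and each name below stands for the Arabidopsis gene that the probes were designed for. Ribosomal RNA is one of the main stores of organic phosphorus in leaves, and ribosome number follows growth in plants.

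Values were deposited as MAS5 signal, an intensity on a linear scale, with a trimmed mean of 100 on every array. The arrays fall into 2 processing sets. The replicate 1 arrays of both groups, the first set, list 22810 probe sets and the replicate 2 and 3 arrays, the second, 19642, and log2 signals correlated across probe sets with r between 0.903 and 0.927 within a set and between 0.608 and 0.633 across sets. Both sets hold both groups, so P-starved and replete arrays were compared within sets, with the set as a block in limma. Of the 12 green tissue markers set out for the check, 5 were measured, with a summed signal of 4644 to 11121 on P-starved and 4433 to 14214 on replete arrays. Of 9 root markers 2 were measured, with a summed signal of 82.2 to 143 on P-starved and 70.9 to 111 on replete arrays.

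The 60S genes were bright on these arrays. Averaged over the arrays, 32 of the 37 lay above the median of all tested probe sets, and their median percentile was 93.1. A signal under 16, where the log2(signal + 16) scale used below flattens differences, occurred on at least 1 array for 5 genes. RPL19B (AT3G16780) was that dim on all 6 arrays, at 13.1, 11.4 and 15.6 in P-starved and 13.4, 7.70 and 8.80 in replete shoots. The level of a gene often differed between the processing sets, by over 1 log2 unit for 17 of the 37. RPL22C (AT5G27770) was the widest, with 11.0 and 79.4 on the P-starved and replete replicate 1 arrays, against 886 and 1073 on P-starved and 811 and 900 on replete replicates 2 and 3. The signal level of a gene thus depends on the set, and the reason was not tested. Group differences are read within sets unless all 6 arrays are named.

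Most of the 37 chosen 60S genes had lower values in P-starved shoots. With the set as a block, the log2 difference (P-starved minus replete) was below 0 for 31 of the 37 genes and above 0 for 6, with a median of -0.27 and a range of -0.99 to 0.37. Over all tested probe sets 47.4% were below 0, and the median was 0.02. No gene passed the threshold: limma with the set as a block called 0 of 37 at an adjusted p under 0.05, as it did 0 of 19578 probe sets, and the smallest adjusted p was 0.788. At an unadjusted p under 0.05, 9 of the 37 genes were lower, or 24.3%, where 3.20% of all tested probe sets were, and 0 were higher, where 2.71% of all tested probe sets were. Without the set as a block, limma gave 1 lower gene in place of 9, where 0.536% of all tested probe sets were lower in place of 3.20%. In whole shoots a lower share of the cells that express these genes and less of their RNA per cell cannot be told apart. The count of 9 became 6 without either replete replicate 2 or replete replicate 3, where 2.61% and 2.29% of all tested probe sets were lower.

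Genes this bright were set beside other bright probe sets. Of the 1958 probe sets in the brightest 10% by mean log2 signal, 54.6% were below 0, with a median of -0.03, and 8.53% were lower at an unadjusted p under 0.05. Of the 37 genes 29 were among them, and 27 of these were below 0, with a median of -0.29. The other 8 genes were evenly split, with 4 below 0 and 4 above. All 9 genes that were lower at an unadjusted p under 0.05 were in the brightest 10%.

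**Figure D1:**
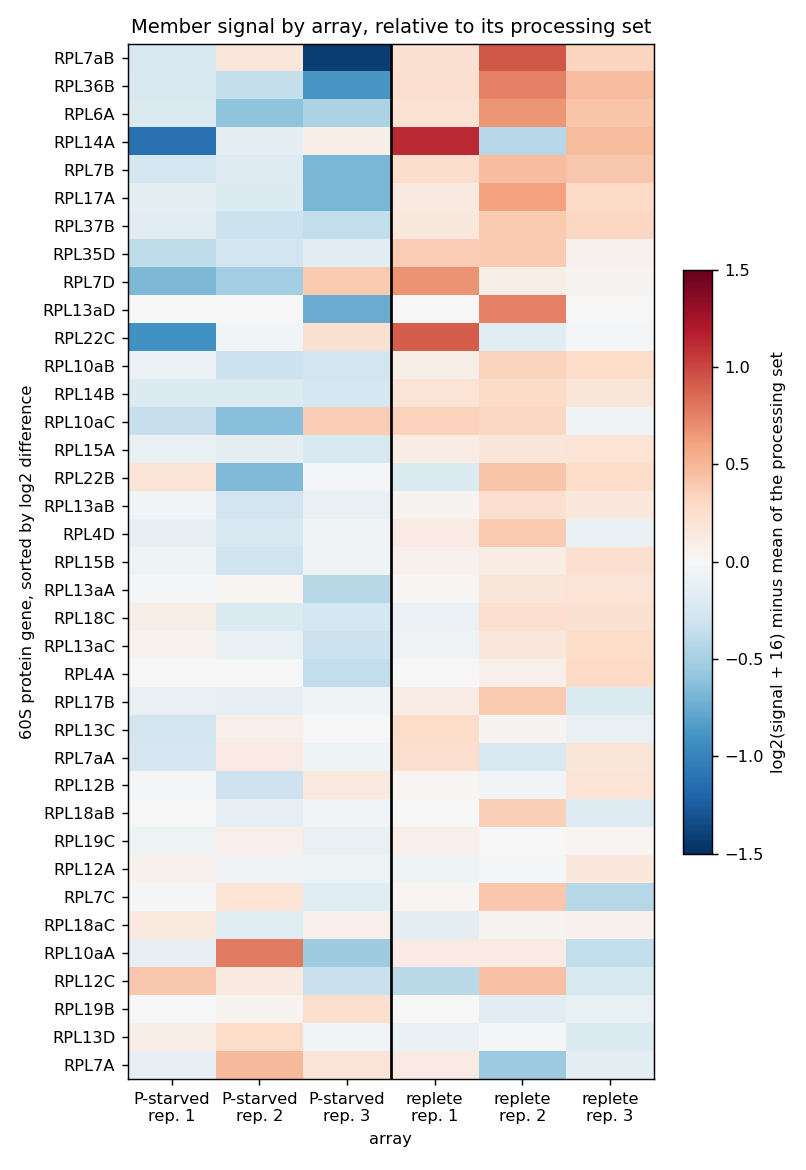
Log2(signal + 16) of the 37 genes (rows, sorted by log2 difference) on each of the 6 arrays (columns), minus the mean of the arrays of the same processing set, from blue (lower) to red (higher). On the P-starved arrays 29, 25 and 29 of the 37 genes lay below their set's mean, against 8, 8 and 13 on the replete arrays.

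On every P-starved array the typical 60S gene lay below the mean of its set. Relative to the mean of its processing set, the median gene stood at -0.12, -0.14 and -0.12 log2 units on P-starved replicates 1, 2 and 3, against 0.12, 0.24 and 0.16 on replete replicates 1, 2 and 3. In the first set each gene has 1 array a group, so its 2 deviations mirror each other by construction. A gene's deviations in the second set sum to 0 too, so the arrays do not count as separate support. No matching values over all tested probe sets are given here.

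The 9 genes lower at an unadjusted p under 0.05 are described first. RPL36B (AT3G53740), for a small RNA-binding protein with no bacterial counterpart, had signals of 144, 440 and 302 in P-starved shoots, against 208, 964 and 792 in replete shoots. P-starved values were lower within both sets, and the log2 difference was -0.98 ± 0.24 (SE), 0.508 times the replete level. RPL37B (AT1G52300), for a zinc-binding protein, had 2150, 4957 and 4806 in P-starved and 2678, 8153 and 7707 in replete shoots. Its log2 difference was -0.57 ± 0.14, again lower in both sets, and -0.38 after quantile normalization within the sets. RPL35D (AT5G02610), whose protein sits at the rim of the exit tunnel in yeast and human ribosomes, had 134, 883 and 961 in P-starved and 240, 1434 and 1134 in replete shoots. The groups overlapped between sets but not within them, and the difference was -0.56 ± 0.15. RPL17A (AT1G27400), for a protein that helps to line the tunnel, had 293, 235 and 164 in P-starved and 359, 422 and 336 in replete shoots, which do not overlap on any array. Its log2 difference was -0.68 ± 0.23.

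RPL6A (AT1G18540), for a protein that is particular to eukaryotic ribosomes, had 300, 191 and 209 in P-starved and 415, 480 and 403 in replete shoots, the smallest unadjusted p of the 37 genes (0.0046). The groups did not overlap, and the log2 difference was -0.87 ± 0.19, 0.548 times the replete level. RPL14B (AT4G27090), whose protein lies beside RPL6 in yeast ribosomes, had 301, 572 and 554 in P-starved and 408, 818 and 759 in replete shoots, a difference of -0.46 ± 0.12. The differences in the 2 sets were close, at -0.42 on the replicate 1 arrays and -0.47 on replicates 2 and 3. RPL7B (AT2G01250), 1 of 4 measured copies for RPL7, had 817, 2878 and 2038 in P-starved and 1185, 4526 and 4356 in replete shoots. Its log2 difference was -0.76 ± 0.17.

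RPL10aB (AT2G27530) is also known as PGY1, or PIGGYBACK1, a gene found in Arabidopsis by mutants with altered leaf shape, and its protein forms the mobile L1 stalk by which used transfer RNA leaves. It had 928, 3076 and 3174 in P-starved and 1059, 4876 and 4659 in replete shoots, with a fitted log2 difference of -0.47 ± 0.14. Replicates 2 and 3 gave -0.61 and the replicate 1 arrays -0.19. RPL15A (AT4G16720), for a protein largely embedded in the subunit's RNA, had 824, 1642 and 1534 in P-starved and 972, 2069 and 2091 in replete shoots, with a difference of -0.34 ± 0.11, or -0.22 after quantile normalization within the sets. RPL13aB (AT3G24830), next in the order of p, had 569, 539 and 610 in P-starved and 606, 781 and 736 in replete shoots, with a difference of -0.29 ± 0.13. In mammals RPL13a also leaves the ribosome to silence some inflammatory messenger RNAs.

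The lowest log2 difference belonged to RPL7aB (AT3G62870), whose protein is needed early in 60S assembly in yeast, at -0.99 ± 0.46. It had 587, 571 and 178 in P-starved and 807, 984 and 637 in replete shoots. The groups did not overlap, but P-starved replicate 3 stood far below its fellow, and the unadjusted p was 0.080. Without that array the difference was -0.46, and RPL7aB was no longer the lowest, since RPL6A was then at -0.84 and RPL36B at -0.76. Over all 6 arrays, 3 of the 37 genes were lower without overlap (RPL6A, RPL17A and RPL7aB), or 8.11%, against 1.92% of all tested probe sets. None of the 37 was higher without overlap, against 2.33% of all tested probe sets.

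Other genes barely differed. RPL7C (AT2G44120) had 935, 391 and 296 in P-starved and 974, 453 and 248 in replete shoots, which gives -0.01 ± 0.25. RPL18aC (AT3G14600) had 397, 201 and 244 in P-starved and 320, 239 and 242 in replete shoots, a difference of 0.03 ± 0.17. RPL12A (AT2G37190) had 296, 424 and 417 in P-starved and 268, 434 and 494 in replete shoots, a difference of -0.04 ± 0.14. RPL12 sits at the base of the stalk that recruits elongation factors, and none of its 3 copies was beyond 0.14 log2 units of 0 in either direction. The SE shows how wide the range around these values is, so a small change in either direction cannot be told from none. The 6 genes above 0 were RPL7A, RPL13D, RPL19B, RPL12C, RPL10aA and RPL18aC, with differences of 0.03 to 0.37, and none had an unadjusted p under 0.05.

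**Figure D2:**
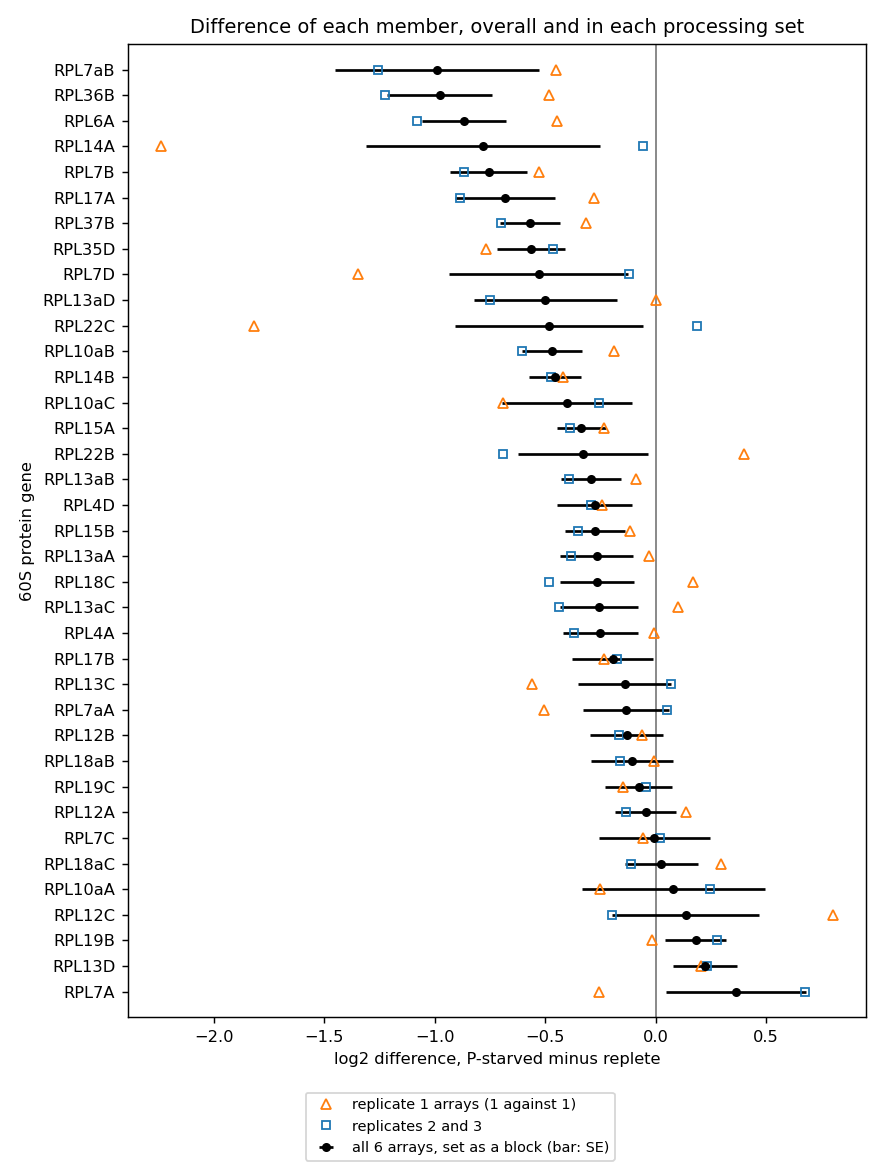
Log2 difference (P-starved minus replete) of each of the 37 genes from all 6 arrays with the set as a block (black, bars are SE), from the replicate 1 arrays (orange triangles, 1 array against 1) and from replicates 2 and 3 (blue squares). Most symbols lie left of 0, and RPL14A and RPL22C have their triangles near -2 and their squares near 0.

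The lean of these 37 genes towards lower values was found in each processing set taken alone. The 42 further measured 60S genes, described below, had medians of 0.05 on the replicate 1 arrays and -0.11 on replicates 2 and 3. On the replicate 1 arrays, 1 against 1 with no replicate check, 29 of the 37 genes were below 0, against 48.0% of all tested probe sets, with a median of -0.23. On replicates 2 and 3, 29 were below 0 as well, against 46.1% of all tested probe sets, with a median of -0.29. These were not always the same genes: 22 were below 0 in both sets, against 23.1% of all tested probe sets. Unlike signs were found for 14, against 47.9% of all tested probe sets. Above 0 in both was 1 gene (RPL13D), against 29% of all tested probe sets. The first set has 1 array a group and cannot show overlap, so only its sign counts here. Without overlap on replicates 2 and 3 and with the same sign in the first set, 14 of the 37 were lower. This is 37.8%, against 8.59% of all tested probe sets. In the other direction there were 0, against 12.5% of all tested probe sets. On replicates 2 and 3 limma called 0 of 37 at an adjusted p under 0.05 and gave 10 lower at an unadjusted p under 0.05, against 3.79% of all tested probe sets, and 0 higher, against 3.51% of all tested probe sets.

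The arrays also carry a control for 25S ribosomal RNA, the main RNA of the 60S subunit, and it went the way of these genes in the first set alone. Its signal was 881 on P-starved and 3767 on replete replicate 1, but 175 and 335 on P-starved and 111 and 101 on replete replicates 2 and 3. The signal of this control was thus lower on P-starved arrays in the first set and higher in the second. The median log2 difference of these 60S protein genes was below 0 in both. This control is 1 probe set, and its signal ran from 101 to 3767 on the replete arrays alone. Its part in the protein gene values was not tested.

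Whether a gene's difference was itself unlike in the 2 sets was tested with an interaction term over all probe sets. Limma called 0 of 37 genes at an adjusted p under 0.05, and 3 (RPL22C, RPL18C and RPL14A) at an unadjusted p under 0.05, or 8.11%, where 9.94% of all tested probe sets were called. RPL22C, for a protein that yeast can do without, had the smallest interaction p. It differed by -1.82 on the replicate 1 arrays but by 0.19 on replicates 2 and 3, with an adjusted p of 0.207 from limma for the interaction. The value of -1.82 rests on signals of 11.0 and 79.4, far below the 811 to 1073 of the other arrays.

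RPL14A (AT2G20450) was the furthest apart in the 2 sets, by 2.18 log2 units, with a signal of 133 on replete replicate 1 and 7.80 to 28.4 on the other 5 arrays. Its log2 difference of -0.78 ± 0.53 combines -2.24 from the replicate 1 arrays with -0.05 from the others. RPL22B (AT3G05560) ran the other way, with 390, 406 and 641 in P-starved and 292, 875 and 796 in replete shoots, differences of 0.40 on the replicate 1 arrays and -0.69 on replicates 2 and 3. RPL12C (AT5G60670) had 157, 124 and 84.8 in P-starved and 83.4, 156 and 91.9 in replete shoots, with 0.80 and -0.20. For these genes the pooled value averages 2 unlike estimates, which the interaction term did not tell apart at an adjusted p under 0.05. Limma gave an unadjusted interaction p of 0.084 for RPL22B and 0.184 for RPL12C. The pooled -0.33 of RPL22B was -0.04 without P-starved replicate 2, -0.19 without replete replicate 2 and -0.69 without either replicate 1 array. The pooled 0.14 of RPL12C was 0.42 without replete replicate 2, 0.37 without P-starved replicate 3, 0.04 without replete replicate 3 and -0.20 without either replicate 1 array. The pooled -0.48 of RPL22C was -0.19 under an offset of 64, -0.75 without P-starved replicate 3 and 0.19 without either replicate 1 array. RPL18C (AT5G27850), a bright gene, had 1543, 3964 and 3848 in P-starved and 1370, 5500 and 5422 in replete shoots, with 0.17 from the replicate 1 arrays but -0.48 from the others.

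Gene copies of the same protein were compared by their log2 differences, not by their levels, in 27 pairs of 13 proteins. An exact two-sided permutation test exchanged the group labels within each processing set. It has 12 relabelings and cannot give a p under 0.167, so that no pair could pass, and the smallest adjusted p over the 27 pairs was 0.900. In 17 pairs both copies were below 0, in 10 the copies had unlike signs and in 0 were both above 0. The size of the difference between copies ran from 0.01 to 1.12 log2 units with a median of 0.24, and exceeded 0.5 in 6 pairs. It had the same sign in both sets in 13 pairs and unlike signs in 14.

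The copies for RPL7 were the least alike. RPL7B was at -0.76, RPL7D at -0.53, RPL7C at -0.01 and RPL7A at 0.37. RPL7A (AT1G80750) was dim, with 13.0, 66.5 and 51.5 in P-starved and 18.6, 24.4 and 37.9 in replete shoots, so its difference is flattened by the offset. RPL7A minus RPL7B gave 1.12, the largest of the 27, with 0.27 from the replicate 1 arrays but 1.55 from the others (exact permutation p = 0.167). RPL7B minus RPL7C gave -0.75, with -0.47 and -0.89 (exact permutation p = 0.167), and -0.49 without replete replicate 3. Both copies of that pair are bright. Their difference did not overlap between the groups on replicates 2 and 3, with the same sign on the replicate 1 arrays. This restates the p of 0.167 and adds nothing to it.

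RPL7D (AT3G13580) was dim too, with 17.7, 30.3 and 70.8 in P-starved and 69.8, 54.1 and 51.8 in replete shoots. RPL7A minus RPL7D gave 0.90 (exact permutation p = 0.333), with 0.49 under an offset of 64 and 0.58 without P-starved replicate 2. For RPL7a the A copy was at -0.13 and the B copy at -0.99, a difference of 0.86 (exact permutation p = 0.333). The replicate 1 arrays gave -0.05 and the others 1.31. It was 0.32 without P-starved replicate 3, 0.43 without replete replicate 2 and 1.31 without either replicate 1 array.

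Among the other proteins, RPL10aA minus RPL10aB gave 0.55 and RPL10aA minus RPL10aC 0.48 (exact permutation p = 0.667 and 0.833). RPL17A minus RPL17B gave -0.49 and RPL13C minus RPL13D gave -0.37. RPL13C was dim on replicates 2 and 3, with signals of 1.60 to 4.00, so its own difference there is flattened by the offset. Within the RPL17, RPL13 and RPL19 pairs the difference did not overlap between the groups on replicates 2 and 3. The replicate 1 arrays gave the same sign. Each of these pairs thus had the smallest p the test allows (exact permutation p = 0.167). With the 2 RPL7 pairs above, 5 of the 27 pairs had this p. Exchanged labels alone give a pair this p with a probability of 0.167, so the count does not set these pairs apart. The 4 copies for RPL13a were at -0.27 (A), -0.29 (B), -0.26 (C) and -0.50 (D), and RPL13aA minus RPL13aB and RPL13aA minus RPL13aC gave 0.03 and -0.01, the 2 smallest of the 27 (exact permutation p = 0.833 for both). RPL4A and RPL4D, for a protein with a loop in the exit tunnel, were at -0.25 ± 0.17 and -0.28 ± 0.17. RPL15A and RPL15B were at -0.34 ± 0.11 and -0.27 ± 0.13. Both were lower on the replicate 1 arrays and, without overlap, on replicates 2 and 3. For RPL19, which bridges the subunits in yeast, the B copy was at 0.18 ± 0.14 and the C copy at -0.08 ± 0.15, a difference of 0.26, with the B copy dim on all arrays. Probes that read more than 1 copy would draw such values together, which was not tested.

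**Figure D3:**
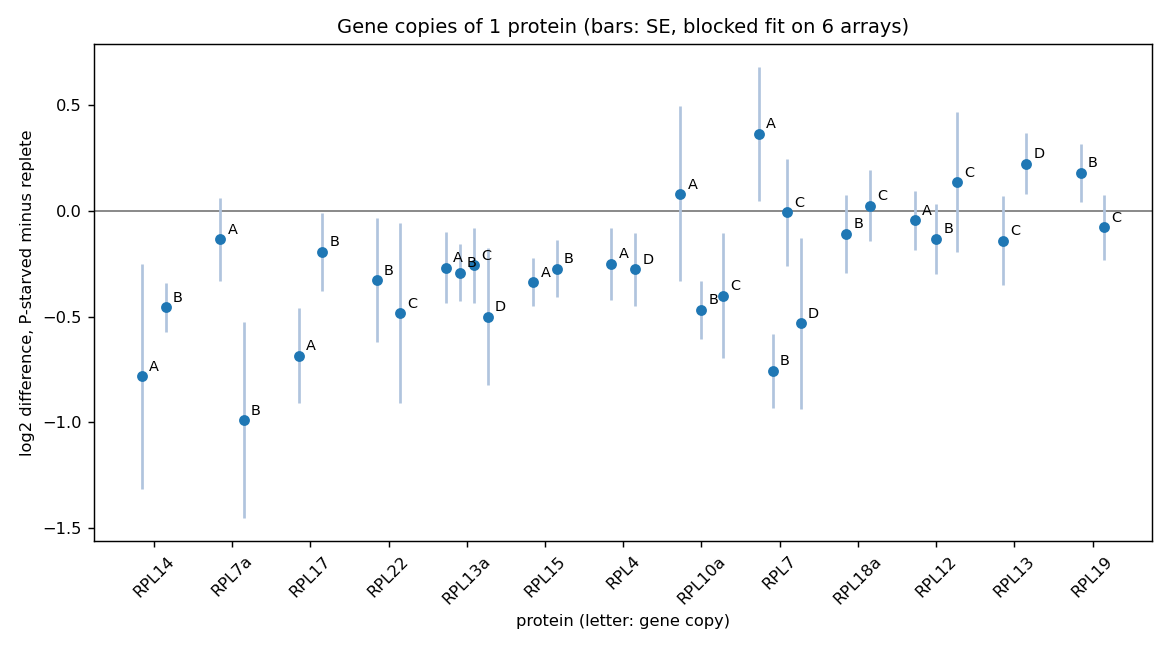
Log2 difference (P-starved minus replete, all 6 arrays with the set as a block) of the 32 genes of the 13 proteins with 2 or more measured copies, 1 column per protein, with SE bars and the copy's letter. The 4 RPL7 copies spread from -0.76 to 0.37, while the RPL13a, RPL15 and RPL4 copies lie within a narrow band below 0.

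The genes for other proteins of the same subunit were about evenly spread around 0. Of 71 further 60S loci, among them the stalk proteins and most of the smaller proteins, 42 were measured, and 24 were below 0 and 18 above, with a median log2 difference of -0.04. On the replicate 1 arrays 27 of these 42 were above 0 and on replicates 2 and 3 14 were. Limma with the set as a block called 0 of them. At an unadjusted p under 0.05, 0 were higher and 1 was lower, or 2.38%, against 3.20% of all tested probe sets. This was AT1G07070, a gene for RPL35a, with 12.1, 11.8 and 12.1 in P-starved and 17.3, 36.6 and 75.6 in replete shoots. Over both 60S lists 55 of 79 genes were below 0, with a median of -0.14. At an unadjusted p under 0.05, 10 of the 79 were lower, or 12.7%, against 3.20% of all tested probe sets. None was higher, against 2.71% of all tested probe sets. The difference between the 2 lists was not tested.

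Of 94 loci for proteins of the 40S subunit, 43 were measured, and 34 were below 0 and 9 above, with a median of -0.22. Their lean came from 1 set. On the replicate 1 arrays 27 of the 43 were above 0, with a median of 0.23, and on replicates 2 and 3 35 were below 0, with a median of -0.39. Limma called 0. At an unadjusted p under 0.05, 6 were lower, or 14.0%, and 0 higher, against 3.20% and 2.71% of all tested probe sets. AT3G02560, a gene for RPS7, had the smallest p of them, with 893, 984 and 788 in P-starved and 1249, 1810 and 1573 in replete shoots, and its log2 difference was -0.78 ± 0.17. On the replicate 1 arrays the 37 genes thus had a median (-0.23) of unlike sign to that of the 40S genes. The median of the other 60S genes was above 0 there as well, at 0.05. Over both 60S lists it was -0.02, with 44 genes below 0 and 35 above. None of these differences was tested.

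Of 42 loci for ribosome assembly factors, which build the subunits in the nucleolus, 15 were measured, 10 below 0 and 5 above, with a median of -0.27. Limma called 0 of them. At an unadjusted p under 0.05, 2 were lower, or 13.3%, and 0 higher, against 3.20% and 2.71% of all tested probe sets. AT5G38720, for a factor of ribosomal RNA processing, had 101, 5.50 and 4.50 in P-starved and 164, 68.6 and 69.1 in replete shoots, with a log2 difference of -1.55 ± 0.36. AT5G41190, for a factor that finishes the 40S RNA, had -0.61 ± 0.20. Of 31 loci for initiation and elongation factors, 5 were measured, 3 below 0 and 2 above, with a median of -0.36. EIF4A-2 (AT1G54270), an RNA helicase of initiation, had 322, 1049 and 1058 in P-starved and 443, 1381 and 1282 in replete shoots, a difference of -0.37 ± 0.11. Limma called none of these 5, while 2 were lower (40%) and 0 higher at an unadjusted p under 0.05, beside the same shares of all tested probe sets.

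**Figure D4:**
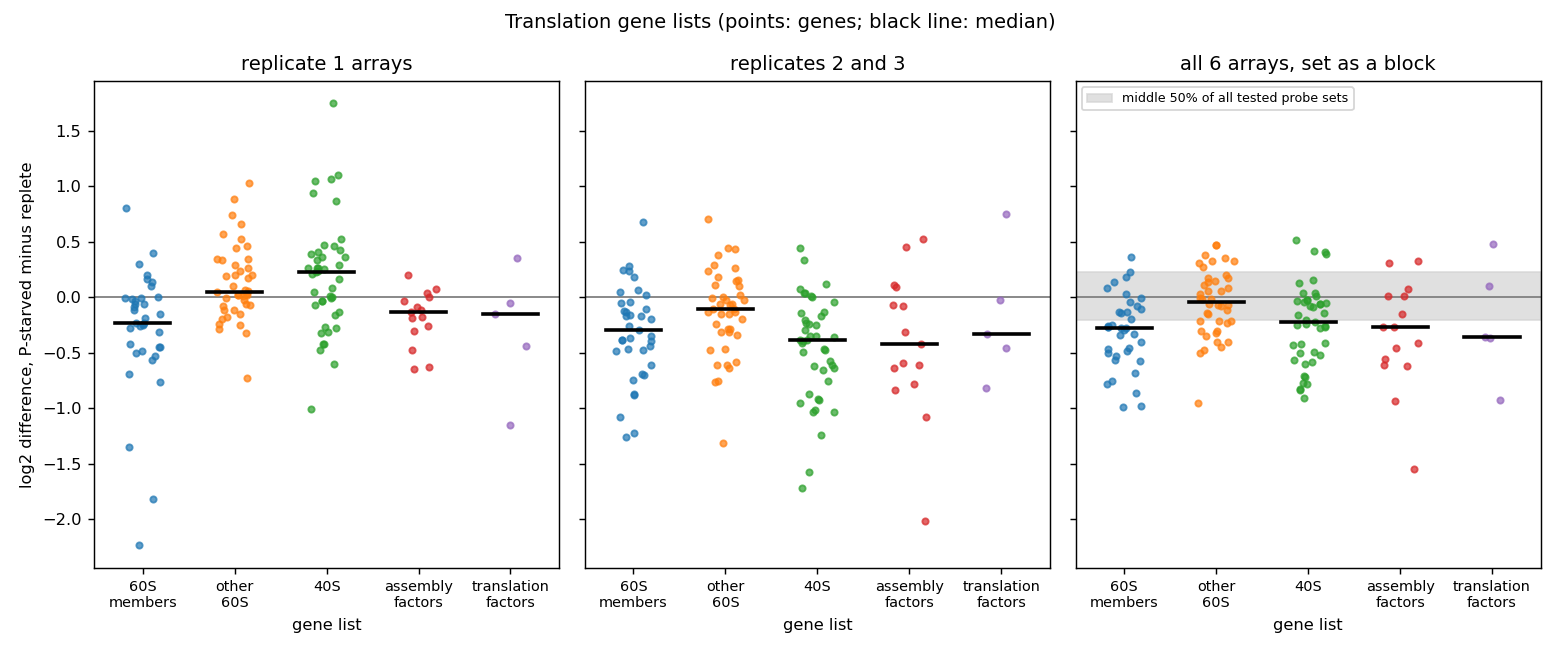
Log2 difference (P-starved minus replete) of each measured gene of 5 lists on the replicate 1 arrays, on replicates 2 and 3 and over all 6 arrays with the set as a block, with the median as a black line and, on the right, the middle 50% of all tested probe sets (-0.21 to 0.23) shaded. The median of the 37 genes (left column of each panel) is below 0 in all 3 panels. Those of the other 60S genes and of the 40S genes are above 0 on the replicate 1 arrays.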

How the data were processed

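The authors deposited MAS5 signal, an intensity per probe set on a linear scale, and the tool is known from the submitters' processing notes. The labels state neither its version nor the probe set definition, masking or detection calls. Each array was scaled to a 2% trimmed mean of 100 and log2(signal + 16) was taken, without the 64 control probe sets. Loci came from the platform's table of probe set genes, joined to a table of Arabidopsis genes (TAIR10.1). P-starved and replete arrays were compared over all 19578 probe sets with limma 3.58.1 in R 4.3.3 (lmFit, eBayes with trend, two-sided, Benjamini-Hochberg) and a block for the processing set. The steps were tested on simulated data. Precision is limited by the number of arrays.

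The 60 loci, the lists and the blocked fit were chosen with earlier results of these data known. Genes named with values on every array are the 10 of smallest p and the 3 of largest and the 3 of smallest difference. So are the 3 furthest apart among those of opposite sign in the 2 sets, and those of the 4 widest and 2 closest pairs of copies. Of these pairs, RPL7aA, RPL13aA and RPL13aC are given by log2 difference alone. RPL14A, RPL18C and RPL19B were added after their values were seen. Same-numbered arrays deviated together from their group means (r of 0.839, 0.551 and 0.530), but within the second set r was 0.016, so the pairing is that of the sets.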

Additional observations from a re-analysis of the deposited data

How the results depend on the processing

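Under every alternative tried limma called 0 of the 37 genes at an adjusted p under 0.05, in the blocked fit, on replicates 2 and 3 alone and for the interaction. No pair of copies could pass under any of them, so that test says nothing of stability. The median log2 difference stayed below 0, from -0.29 to -0.22, and 28 to 31 genes were below 0, the 28 among the 32 genes in the brighter 50% of the probe sets. Quantile normalization within the sets gave the median of -0.22. The number lower at an unadjusted p under 0.05 was 1 with group as the only term (and 0.536% of all tested probe sets), 10 with a replicate block (and 2.76%) and 8 to 10 in the other fits (3.14% to 4.19%). Leaving out 1 array at a time gave 6 to 10 such genes (2.24% to 3.86% of all tested probe sets), medians of -0.29 to -0.24 and 29 to 31 genes below 0. The replicate block changed no call. The planned means over several probe sets of a locus and the filter on probe set kind changed nothing, as each gene has 1 plain probe set.

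Signs turned for values near 0 or held by 1 set. On replicates 2 and 3 alone RPL7C was 0.020, RPL18aC -0.11, RPL12C -0.20 and RPL22C 0.19, as without either replicate 1 array. RPL7C was 0.028 after quantile normalization. With 1 array left out at a time RPL7C ran from -0.25 to 0.22, RPL18aC from -0.11 to 0.14, RPL12A from -0.135 to 0.034, RPL12C from -0.20 to 0.42 and RPL22C from -0.75 to 0.19. RPL13aA minus RPL13aC was 0.0025 with an offset of 4 and 0.087 after quantile normalization, and with 1 array left out it ran from -0.094 to 0.051, and RPL13aA minus RPL13aB from -0.15 to 0.21. The cause was not tested.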
